A study of Mus musculus with 9 samples.

Results

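D cyclins, their kinases and the CDK inhibitors set the pace of G1, the phase in which a progenitor either commits to another division or prepares to leave the cycle. The 10 genes described here are Ccnd1, Ccnd2, Ccnd3, Cdk4, Cdk6, Cdkn1a, Cdkn1b, Cdkn1c, Cdkn2c and Cdkn2d. They were chosen by name for their function, with earlier results of these data known, and matched to the gene identifiers of the deposited count table. All 10 were found among its 35275 identifiers, 18658 of which had at least 1 count in some library. The study sorted mouse bone marrow megakaryocyte-erythrocyte progenitors (MEPs) by binding of HS3A8, a single-chain antibody fragment (scFv) against heparan sulfate, and profiled them by bulk RNA-seq. HS3A8-high and HS3A8-low MEPs are the upper and lower parts of the HS3A8 binding range within the same Lin-, c-kit+, CD34-, FcγRII/III-low gate. The MPB49 control is the same gate, mock-sorted with an scFv that does not bind heparan sulfate, so it stands for total MEPs and holds cells of both kinds. Each of the 3 groups has 3 libraries made from 25000 sorted cells, with totals of 11781637 to 15850037 counts. A count of 0 allows up to 0.189 to 0.255 CPM (counts of a gene scaled to the library total), a limit for counting error only. That limit uses the raw totals, whereas the CPM levels below are also scaled by TMM, a normalization between libraries. The study's methods list C57Bl/6 wild-type mice among those used, with age and sex matched. The labels name no strain, genotype or treatment. The study describes the sorted fractions as coming from individual mice, and neither it nor the labels say whether both fractions of a number came from 1 mouse or how the control relates to them, so the p-values measure the spread between these libraries.

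Cyclin D1, D2 and D3 bind CDK4 or CDK6, and the complexes phosphorylate the RB family, which releases E2F transcription factors and lets a cell enter S phase. INK4 proteins, here p18 (Cdkn2c) and p19 (Cdkn2d), bind CDK4 and CDK6 directly, whereas the CIP/KIP proteins p21 (Cdkn1a), p27 (Cdkn1b) and p57 (Cdkn1c) mainly hold the later cyclin-CDK2 complexes in check. Committed erythroid progenitors divide rapidly with a short G1, and megakaryocytes switch to endomitosis, in which DNA is replicated without cell division.

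The promoters of the 3 inhibitor genes whose HS3A8-high and HS3A8-low libraries did not overlap are shown first. Such a lack of overlap was common, at 29.5% of all genes tested in this comparison. Sequences are from RefSeq on GRCm38.p6, on the coding strand, from 250 bases before to 50 bases after a transcription start, and 7 of the 10 genes had 10 such promoters. Capitals mark GGGCGG or its reverse complement CCGCCC, the core of SP and KLF family binding sites. The first is Cdkn2d at chr9:21291160-21291459 on the minus strand, with 66.3% GC and 5 such matches. The next 2 are separate starts of Cdkn1a, at chr17:29093519-29093818 (64.7% GC, 2 matches) and chr17:29090729-29091028 (54.7% GC, 0 matches), both on the plus strand. The last is Cdkn1b at chr6:134920151-134920450 on the plus strand, with 62.0% GC and 1 match.
Cdkn2d: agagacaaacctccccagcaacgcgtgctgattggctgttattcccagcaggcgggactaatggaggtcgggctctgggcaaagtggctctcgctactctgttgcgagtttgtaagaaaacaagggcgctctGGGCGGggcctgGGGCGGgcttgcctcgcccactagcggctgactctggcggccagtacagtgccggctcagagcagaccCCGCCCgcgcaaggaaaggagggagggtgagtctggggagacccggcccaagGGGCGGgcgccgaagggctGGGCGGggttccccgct
Cdkn1a, downstream start: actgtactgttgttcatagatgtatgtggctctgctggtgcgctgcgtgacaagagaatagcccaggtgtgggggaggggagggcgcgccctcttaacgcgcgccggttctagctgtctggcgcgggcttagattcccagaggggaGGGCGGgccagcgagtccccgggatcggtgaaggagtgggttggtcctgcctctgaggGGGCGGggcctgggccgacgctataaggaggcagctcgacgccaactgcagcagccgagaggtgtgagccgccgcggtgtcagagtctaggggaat
Cdkn1a, upstream start: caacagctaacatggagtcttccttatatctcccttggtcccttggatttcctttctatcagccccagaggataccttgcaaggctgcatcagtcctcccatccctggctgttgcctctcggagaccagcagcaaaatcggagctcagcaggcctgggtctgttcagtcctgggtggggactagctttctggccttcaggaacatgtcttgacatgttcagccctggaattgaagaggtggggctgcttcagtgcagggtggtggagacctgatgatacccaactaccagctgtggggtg
Cdkn1b: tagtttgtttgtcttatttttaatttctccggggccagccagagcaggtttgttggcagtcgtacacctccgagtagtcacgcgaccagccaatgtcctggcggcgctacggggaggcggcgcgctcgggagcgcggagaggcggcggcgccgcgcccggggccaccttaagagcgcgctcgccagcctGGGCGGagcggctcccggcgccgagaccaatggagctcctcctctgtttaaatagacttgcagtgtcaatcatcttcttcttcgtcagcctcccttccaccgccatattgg
GGGCGG on either strand occurred in 35.7% of the 32851 mouse promoters of the same length, so its presence is common. The other motifs searched on both strands were AGATAA for GATA factors (11.2% of all promoters), CCGGAA for ETS factors (14.9%), TTGGCGC (2.45%) and TTCCCGC (4.6%) for E2F, and GTAAACA for FOXO (3.65%). None of these 5 was found in the 4 windows printed, which says only that those letters are not in these windows. Among promoters of the set not printed, GGGCGG matched 4 times in 1 window of Cdkn2c, 3 times in Cdk4 and 2 times in each window of Ccnd3. CCGGAA and GTAAACA each matched 1 time in Ccnd3, and TTCCCGC 1 time in Cdkn2c. Cdk6 and the other Cdkn2c window had no match. The matches are thus not particular to the 3 inhibitor genes printed.

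Among the 10 genes the CDK inhibitors Cdkn2d, Cdkn1a and Cdkn1b were the ones whose HS3A8-high and HS3A8-low libraries did not overlap, and all 3 were lower in HS3A8-high MEPs. Groups did not overlap for 29.5% of all genes tested in this comparison. Cdkn2d was 2.68-fold lower in HS3A8-high and passed the test over all genes. Cdkn1a was 3.39-fold lower and Cdkn1b 2.10-fold lower, and both missed the threshold in the unblocked edgeR test. With the replicate number as a block, Cdkn1a passed (edgeR adjusted p = 0.0261) and Cdkn1b did not (edgeR adjusted p = 0.0604). The blocked fit called 11.6% of all genes tested. The D cyclins, Cdk4, Cdk6 and Cdkn2c gave no call in any of the 3 comparisons with the main test.

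**Figure D1:**
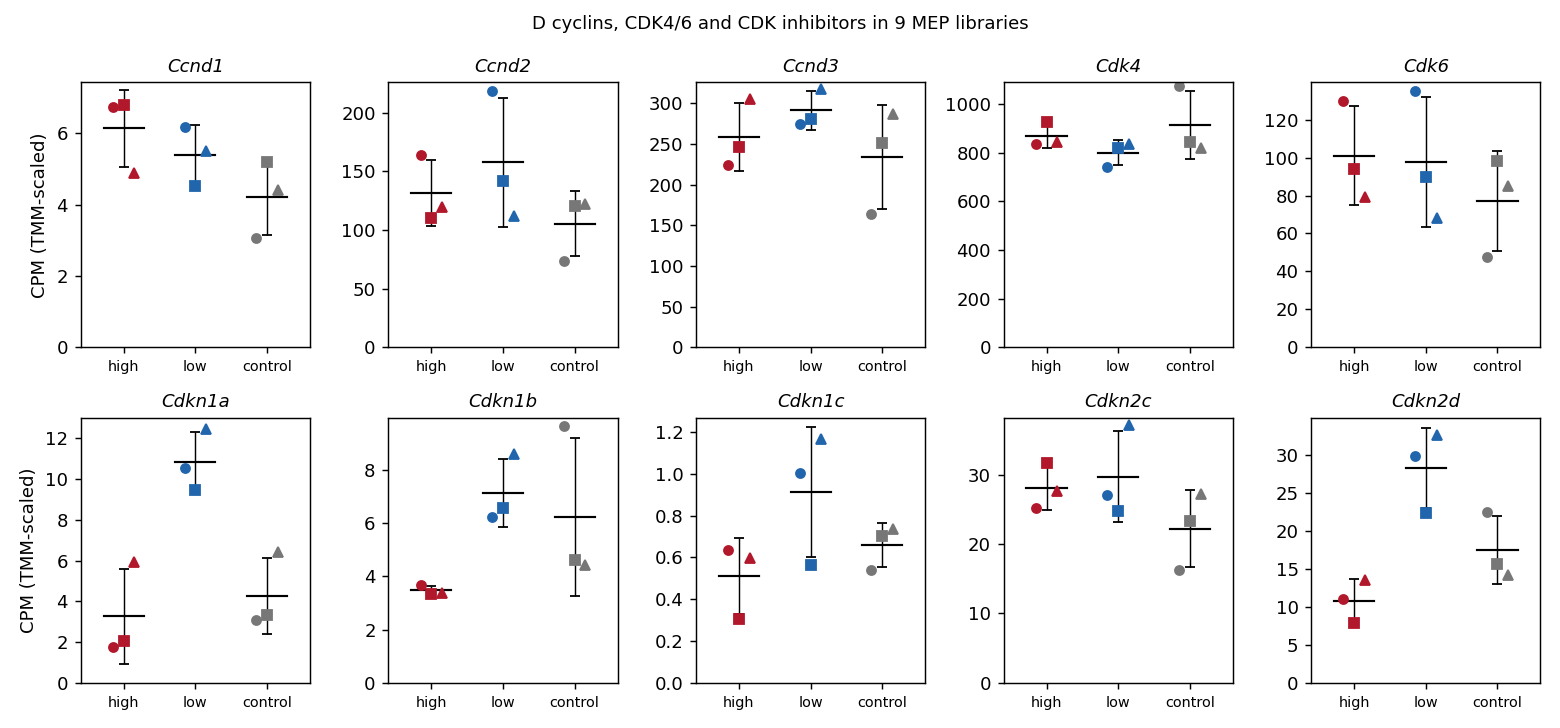
TMM-scaled CPM of the 10 genes in 9 libraries, with HS3A8-high, HS3A8-low and MPB49 control on each horizontal axis and a separate vertical axis from 0 for each gene; circles, squares and triangles are replicates 1, 2 and 3, long bars are group means and whiskers 1 SD (n = 3). The HS3A8-low points of Cdkn1a, Cdkn1b and Cdkn2d lie above all HS3A8-high points, whereas the other 7 panels overlap between the fractions.

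Levels between genes are compared as CPM per kilobase of exon (n = 3 in each mean). Cdk4 stood far above the rest, with a mean of 267 in HS3A8-high MEPs, 246 in HS3A8-low MEPs and 281 in the control. Ccnd3 came next in every group, at 29.5, 33.2 and 26.7, and within each group its range met that of no other gene of the set. In HS3A8-high the order went on with Ccnd2 (14.0), Cdkn2c (10.5), Cdk6 (7.22) and Cdkn2d (6.87), where Ccnd2 and Cdkn2c overlapped, as did Cdk6 and Cdkn2d. Cdkn2d held a different place in HS3A8-low, where its mean of 18.0 was the third of the 10, ahead of Ccnd2 (16.8), Cdkn2c (11.0) and Cdk6 (6.98), and each of these overlapped the next. The control had Ccnd2 at 11.2, Cdkn2d at 11.1, Cdkn2c at 8.27 and Cdk6 at 5.51, again each overlapping the next. Below them in HS3A8-high lay Ccnd1 (1.30), Cdkn1a (0.919) and Cdkn1b (0.763), which overlapped in turn. In HS3A8-low the order of these 3 was Cdkn1a (3.05), Cdkn1b (1.57) and Ccnd1 (1.15), with no overlap between neighbours. Cdkn1c was the lowest gene in every group, with means from 0.251 to 0.447.

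The D cyclins are the regulatory partners that mitogen and cytokine signals induce. Ccnd3, the D cyclin best known for its part in red cell precursors, is encoded at chr17:47505051-47599691 on the plus strand of GRCm38. It measured 224, 247 and 305.3 CPM in HS3A8-high replicates 1 to 3, 274.5, 281.2 and 318.2 in HS3A8-low, and 163.9, 251.0 and 287.4 in the control. The fractions overlapped, and replicate 3 was the highest library of each group. The fitted difference between HS3A8-high and HS3A8-low was -0.21 on the log2 scale (SE 0.132, edgeR adjusted p = 0.443). A processed pseudogene of Ccnd3 is annotated, and reads the copies share could have been left out or misassigned in the counting.

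Ccnd2, a D cyclin widely used by blood progenitors, lies at chr6:127125162-127152193 on the minus strand. Its levels were 163.6, 110.5 and 120.0 CPM in the HS3A8-high libraries, 218.6, 142.1 and 112.4 in the HS3A8-low libraries, and 73.3, 120.9 and 122.5 in the control. Replicate 1 was the highest library in both fractions and the lowest in the control, and all groups overlapped. The difference between the fractions was -0.30 (SE 0.264, edgeR adjusted p = 0.594). Ccnd1, at chr7:144929931-144939925 on the minus strand, was rare, with 4.53 to 6.79 CPM in the 6 HS3A8-sorted libraries and 3.06 to 5.19 CPM in the control. Its difference between the fractions was 0.14 (SE 0.266, edgeR adjusted p = 0.812), and 23.4% of its exon length overlaps a gene on the opposite strand, so reads of the pair can be told apart only if the counting used strand, which the sources used here do not state.

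The shares of Ccnd2 and Ccnd3 in the D cyclin pool varied more between replicates of a fraction than between the fractions. Ccnd3 contributed 57.6%, 68.1% and 71.6% of the summed D cyclin level per kilobase in HS3A8-high replicates 1 to 3, and 56.0%, 66.6% and 73.4% in HS3A8-low. In the control its share was 68.9%, 67.2% and 70.1%. Replicates of the same number thus lay close together in the fractions, while replicates 1 and 3 of 1 fraction lay far apart. The mean share of Ccnd3 was 65.8% ± 7.31 (SD, n = 3) for the HS3A8-high group and 65.4% ± 8.77 (SD, n = 3) for the HS3A8-low group. Their difference of 0.399 percentage points gave p = 1.0 in a two-sided exact permutation test, which with 3 against 3 libraries cannot go below 0.1. It ran from -4.27 without HS3A8-low replicate 1 to 4.50 without HS3A8-high replicate 1, so its sign rests on single libraries. Ccnd2 made up 31.3% ± 6.94 and 32.4% ± 8.76 (SD, n = 3 each; exact permutation p = 0.8) and Ccnd1 2.95% ± 0.716 and 2.24% ± 0.21 (SD, n = 3 each; exact permutation p = 0.3). The difference in the share of Ccnd2, -1.11 percentage points, ran from -5.22 without HS3A8-low replicate 3 to 3.50 without HS3A8-low replicate 1, and that of Ccnd1 stayed above 0, from 0.443 to 1.12.

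**Figure D2:**
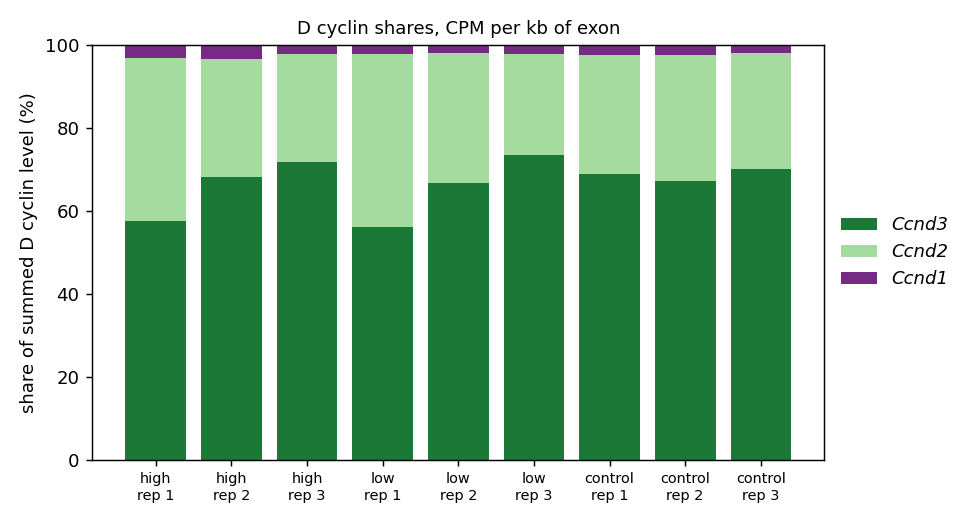
Share of each D cyclin in the summed D cyclin level (percent of CPM per kilobase of exon) in each of the 9 libraries, as stacked bars that start at 0. Ccnd3 takes the largest share in every library, from 56.0% in HS3A8-low replicate 1 to 73.4% in HS3A8-low replicate 3, and Ccnd1 the smallest.

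The kinase partners overlapped between the fractions as well. Cdk4 (chr10:127063534-127067920, plus strand) measured 835.6, 924.8 and 843.3 CPM in the HS3A8-high libraries, 742.7, 819.1 and 837.3 in the HS3A8-low libraries, and 1072, 844.7 and 819.7 in the control. The high value of control replicate 1 was the highest of all 9 libraries, and the groups overlapped. The log2 difference between the fractions was 0.08 (SE 0.0745, edgeR adjusted p = 0.610). Tspan31, on the opposite strand over 19.7% of the Cdk4 exons, was at 54.5 to 99.1 CPM. Cdk6, the other D cyclin kinase (chr5:3341485-3531008, plus strand), had 129.9, 94.1 and 79.1 CPM in HS3A8-high MEPs, 135.2, 89.5 and 68.3 in HS3A8-low MEPs, and 47.6, 98.3 and 85.2 in the control. As with Ccnd2, replicate 1 was highest in both fractions and lowest in the control. The fractions differed by 0.01 (SE 0.282, edgeR adjusted p = 0.987). Cdk4 made up 97.4% ± 0.735 of the summed kinase level per kilobase in the HS3A8-high group and 97.2% ± 1.13 in the HS3A8-low group (SD, n = 3 each; exact permutation p = 0.8).

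Cdkn2d, the INK4 inhibitor p19 (ENSMUSG00000096472, chr9:21288410-21291407, minus strand), gave the clearest difference of the set. It measured 11.0, 7.86 and 13.6 CPM in HS3A8-high, from 173, 103 and 205 counts. In HS3A8-low it measured 29.9, 22.4 and 32.6 CPM, from 508, 316 and 391 counts. The control libraries had 22.5, 15.6 and 14.2 CPM. Every HS3A8-high library was therefore below every control library and every HS3A8-low library, while HS3A8-low replicate 2 lay within the control range. Cdkn2d fell by 1.42 on the log2 scale in HS3A8-high relative to HS3A8-low (SE 0.260, edgeR adjusted p = 0.0363). It was the only 1 of the 9 genes tested that was called in the unblocked edgeR test, beside 3.82% of all genes tested. Its ratio between the fractions was also the most even of the 3 inhibitors within replicate numbers, at -1.44, -1.51 and -1.27 (mean -1.41, SD 0.125, n = 3). With the replicate number as a block Cdkn2d was also called, at -1.44 (edgeR adjusted p = 0.00589). DESeq2 gave -1.40 (adjusted p = 1.99e-05), and leaving out replicate 3 of both fractions gave -1.49 (edgeR adjusted p = 0.03255). Without the block, leaving out 1 library at a time gave log2 differences of -1.62 to -1.23. The call was kept without HS3A8-high replicate 3 and lost without any of the other 5, with adjusted p-values of 0.135 and 0.119 when replicates 1 and 2 of HS3A8-high were omitted in turn, and of 0.0957, 0.127 and 0.0676 when replicates 1, 2 and 3 of HS3A8-low were.

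Cdkn1a encodes p21, the CIP/KIP inhibitor induced by p53 (ENSMUSG00000023067, chr17:29090976-29100727, plus strand). It was at 1.78, 2.06 and 5.95 CPM in HS3A8-high, from 28, 27 and 90 counts. HS3A8-low libraries had 10.6, 9.48 and 12.4 CPM, from 179, 134 and 149 counts, and control libraries 3.06, 3.33 and 6.40 CPM. All HS3A8-low libraries lay above both other groups, and replicate 3 was the highest library of each group. The log2 difference between the fractions was -1.76 (SE 0.490, edgeR adjusted p = 0.105). With the replicate number as a block it was -1.94 (SE 0.356, edgeR adjusted p = 0.0261), and DESeq2 without a block gave -1.74 (adjusted p = 0.00815). Without HS3A8-high replicate 3 it was -2.52 (edgeR adjusted p = 0.0141). The ratio within replicate numbers was -2.57, -2.20 and -1.06 (mean -1.94, SD 0.784, n = 3), so all 3 pairs had the same direction and replicate 3 the smallest difference. Replicate 3 also stood apart in granulocyte-monocyte markers, a list of 10 genes, whose summed level was 14.7, 7.33 and 1483 CPM in the HS3A8-high libraries, 91.7, 223 and 3409 in the HS3A8-low libraries, and 44.1 to 184.5 in the control. Leaving out replicate 3 of both fractions, Cdkn1a differed by -2.40 (edgeR adjusted p = 0.0131), and the part of the marker cells in its level was not tested.

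Cdkn1b encodes p27, which accumulates in resting cells (chr6:134920401-134925513, plus strand). It had 3.69, 3.36 and 3.37 CPM in HS3A8-high, from 58, 44 and 51 counts. It had 6.25, 6.58 and 8.59 CPM in HS3A8-low, from 106, 93 and 103 counts, and 9.64, 4.61 and 4.42 in the control. The HS3A8-high libraries were close to each other and below all 6 others, and control replicate 1 was the highest of the 9. The log2 difference between the fractions was -1.07 (SE 0.256, edgeR adjusted p = 0.0717), which passed the threshold by DESeq2 (adjusted p = 0.0214) but not in the blocked edgeR test (-1.06, adjusted p = 0.0604). Ratios within replicate numbers were -0.76, -0.97 and -1.35 (mean -1.03, SD 0.299, n = 3).

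The remaining inhibitors overlapped between the fractions. Cdkn2c, the INK4 gene for p18 (chr4:109660876-109667189, minus strand), measured 25.1, 31.6 and 27.6 CPM in the HS3A8-high libraries, 27.1, 24.8 and 37.1 in the HS3A8-low libraries, and 16.2, 23.3 and 27.2 in the control. Its groups overlapped, with a log2 difference of -0.11 between the fractions (SE 0.193, edgeR adjusted p = 0.792). The INK4 genes Cdkn2c and Cdkn2d therefore gave different results in the same libraries, although no test compared the 2 genes with each other. Cdkn1c, the gene for p57 (chr7:143458339-143461050, minus strand), had 10, 4 and 9 counts in HS3A8-high MEPs, 17, 8 and 14 in HS3A8-low MEPs, and 6, 11 and 10 in the control, and did not pass the filter on low counts. An antisense gene covers 30.7% of its exon length. Cdkn1c was the only 1 of the 10 genes left out of the test. With no filter its log2 difference was -0.83 (edgeR adjusted p = 0.579). Its ratio within replicate numbers was -0.66, -0.89 and -0.97 (mean -0.84, SD 0.164, n = 3), below 0 in all 3 pairs, from at most 17 counts in a library. The other 2 INK4 genes were near or at 0, Cdkn2a with 0 counts in all 9 libraries and Cdkn2b with 0 to 4 counts.

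**Figure D3:**
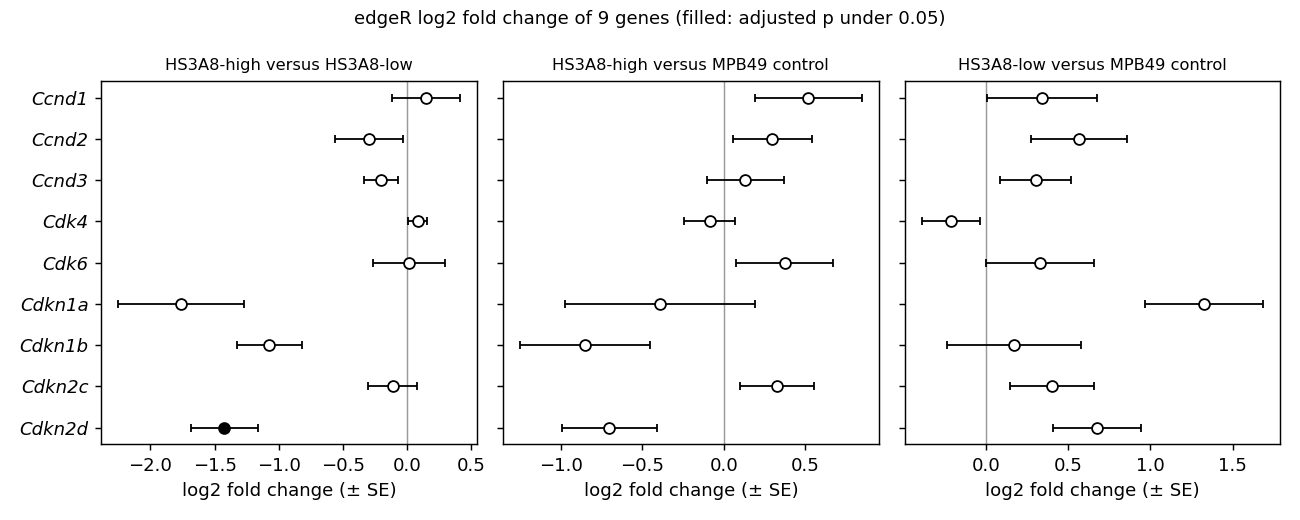
Log2 fold change with its SE (horizontal axis) from the edgeR quasi-likelihood test for the 9 genes that passed the filter, in 1 panel for each comparison; filled points have an adjusted p under 0.05. The filled point is Cdkn2d in HS3A8-high versus HS3A8-low, and the intervals of the D cyclins and kinases lie nearer to 0 in that panel than those of Cdkn1a, Cdkn1b and Cdkn2d.

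For HS3A8-high versus HS3A8-low, 1 of the 9 genes tested was called by edgeR, 2 with the replicate block and 3 by DESeq2. The shares of all genes tested that these tests called were 3.82%, 11.6% and 8.87%. At an unadjusted p under 0.05 there were 3 of 9, beside 19.8% of all genes. The 3 genes without overlap between the fractions stand beside 29.5% of all genes tested, so their number is near what the whole table shows. The median log2 difference of the 9 genes was -0.21, with 3 higher and 6 lower in HS3A8-high, and -0.03 over all 11791 genes tested.

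**Figure D4:**
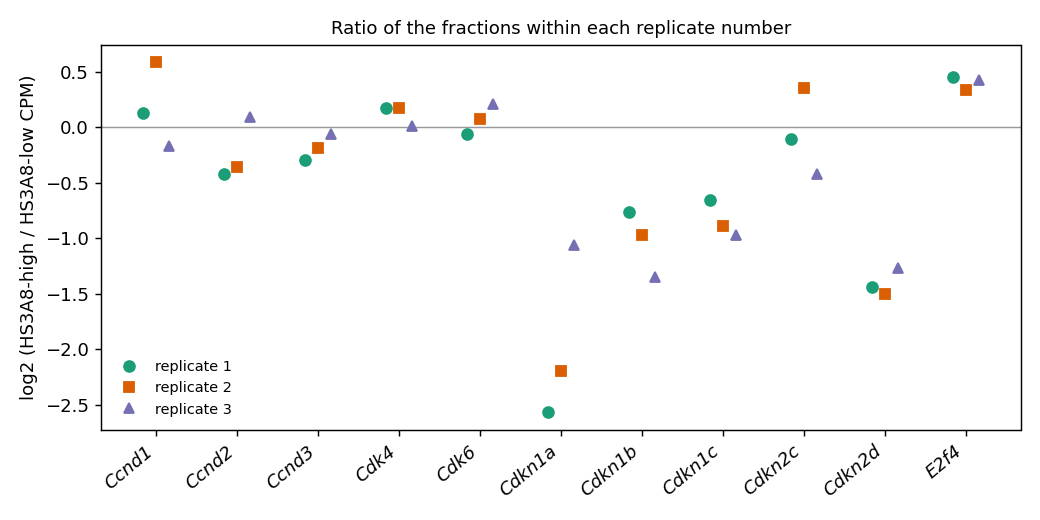
Log2 ratio of HS3A8-high to HS3A8-low CPM (vertical axis) within replicate numbers 1, 2 and 3 for the 10 genes and E2f4. Cdkn2d lies between -1.51 and -1.27, Cdkn1a between -2.57 and -1.06 and Cdkn1b between -1.35 and -0.76, Cdkn1c lies between -0.97 and -0.66, E2f4 lies between 0.34 and 0.45, and Ccnd1, Ccnd2, Cdk6 and Cdkn2c have ratios on both sides of 0.

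The small differences of the D cyclins and kinases varied with the replicate number. Within numbers the HS3A8-high to HS3A8-low ratio of Ccnd3 was -0.29, -0.19 and -0.06, and that of Ccnd2 was -0.42, -0.36 and 0.09. For Cdk4 it was 0.17, 0.18 and 0.01. Replicate 3 gave the ratio nearest to 0 for these 3 genes. Cdk6, at -0.06, 0.07 and 0.21, had its largest ratio in replicate 3, and Ccnd1 had 0.12, 0.59 and -0.17. The blocked fit with all replicates called none of them, with edgeR adjusted p-values of 0.179 for Ccnd2, 0.103 for Ccnd3 and 0.424 for Cdk4. In a blocked fit without replicate 3, an alternative chosen after seeing the data that leaves 1 residual degree of freedom for each gene, edgeR also called Ccnd2 at -0.41 (adjusted p = 0.00023), Ccnd3 at -0.26 (adjusted p = 0.00399) and Cdk4 at 0.16 (adjusted p = 0.0188). With Cdkn1a and Cdkn2d that made 5 genes of the set, beside 30.0% of all genes tested. That fit called 3569 genes in all, against 1367 in the blocked fit with all replicates.

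Against the MPB49 control no gene of the set was called. In HS3A8-high versus control, edgeR and DESeq2 each called 0 of 9, beside 0.0174% and 0.986% of all genes tested, and 1 of 9 had an unadjusted p under 0.05 (4.89% of all genes). That gene was Cdkn2d, with a log2 difference of -0.70 (edgeR unadjusted p = 0.0467, adjusted p = 0.733). Cdkn1b and Cdkn2d did not overlap between HS3A8-high and control, beside 14.4% of all genes tested. The difference of Cdkn1b was -0.85 (edgeR adjusted p = 0.733) and that of Cdkn1a -0.39. The D cyclins and Cdk6 had differences of 0.52 for Ccnd1, 0.30 for Ccnd2, 0.13 for Ccnd3 and 0.37 for Cdk6, all with overlapping groups.

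In HS3A8-low versus control, edgeR and DESeq2 again called 0 of 9, beside 0 and 0.672% of all genes tested, and 2 of 9 had an unadjusted p under 0.05 (5.67% of all genes). These were Cdkn1a, at 1.33 (SE 0.361, edgeR unadjusted p = 0.00741, adjusted p = 0.711), and Cdkn2d, at 0.67 (edgeR unadjusted p = 0.0384, adjusted p = 0.831). Cdkn1a was the gene without overlap, beside 12.7% of all genes tested. Cdkn1b differed by 0.17 and overlapped. Both comparisons use the same control libraries. Control replicate 1 was the lowest of the 9 libraries for 5 of the 10 genes (Ccnd1, Ccnd2, Ccnd3, Cdk6 and Cdkn2c) and the highest for Cdk4 and Cdkn1b.

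The fractions also differed in the markers of the lineages they hold, and in bulk RNA fewer cells of a type and less RNA per cell cannot be told apart. The summed level of 11 erythroid markers was 13370 to 14370 CPM in HS3A8-high MEPs, 10250 to 11590 in HS3A8-low MEPs and 12080 to 13290 in the control, with all 11 detected in every library. The 9 megakaryocyte markers summed to 38.6 to 58.7 CPM in HS3A8-high MEPs, 231.7 to 465.5 in HS3A8-low MEPs and 164.4 to 268.3 in the control. Markers of stem and multipotent progenitors summed to 17.0 to 32.4, 172.5 to 205.0 and 73.6 to 135.8 CPM, and T and NK cell markers to 4.27 to 29.8, 172.7 to 221.5 and 51.8 to 103.3 CPM. In HS3A8-high libraries 7 to 9 of the 9 megakaryocyte markers, 6 or 7 of the 8 stem and progenitor markers and 3 to 6 of the 6 T and NK cell markers had a count, with Procr at 0 in all 3 and Cd3e and Cd3g at 0 in replicates 1 and 2, and in HS3A8-low libraries all had one. B cell markers, 2 to 5 of 6 with a count in a library, summed to 1.37 to 4.76 CPM in HS3A8-high MEPs, 9.66 to 13.5 in HS3A8-low MEPs and 4.16 to 9.65 in the control. Mast cell and basophil markers, 2 to 5 of 5 with a count, summed to 1.27, 2.52 and 63.6 CPM in HS3A8-high replicates 1 to 3, 21.7, 23.5 and 136.4 in those of HS3A8-low, and 8.39 to 24.4 in the control. They were lower in HS3A8-high within every replicate number, as were the granulocyte-monocyte markers, and both overlapped between the fractions. These 6 lists of cells other than erythroid ran in the same direction as Cdkn2d, Cdkn1a and Cdkn1b between the fractions, and their part in those differences was not tested. The gate was checked by its own markers, and Kit was abundant in all 9 libraries, at 379.7 to 806.7 CPM. Cd34 ran from 0.84 to 11.0 CPM in HS3A8-high MEPs, from 28.3 to 73.2 CPM in HS3A8-low MEPs and from 14.7 to 42.5 CPM in the control. The HS3A8-low and control libraries, and less so HS3A8-high replicate 3, thus go against the CD34- part of the gate in RNA. T and NK cell markers were detected in all groups, lowest in HS3A8-high, although the gate is Lin-. The gate sorts on surface protein, which these RNA levels do not measure. Of the genes of the FcγRII/III antigens, which the gate keeps low, Fcgr3 was at 17.8 CPM in HS3A8-high replicate 3 and 43.6 in HS3A8-low replicate 3, against 0.147 to 2.26 in the other 7 libraries. Fcgr2b was at 7.80 and 18.5 CPM in the same pair, against 0.153 to 2.95 in the others, so replicate 3 of both fractions goes against the FcγRII/III-low part of the gate in RNA. Ly6a, which encodes Sca-1, was at 0 to 0.318 CPM in the HS3A8-high libraries and above 1 CPM in the other 6.

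Genes downstream and around the D cyclin complexes gave 1 call among the 37 genes tested, near the 3.82% of all genes that edgeR called. Of the 13 RB and E2F family genes, 9 were higher and 4 lower in HS3A8-high, with a median of 0.03, and 1 was called. This was E2f4, a repressor-type E2F whose loss impairs red cell formation in mice. It measured 633.5, 655.9 and 636.4 CPM in the HS3A8-high libraries, 463.4, 519.4 and 472.9 in the HS3A8-low libraries, and 318.6, 557.6 and 566.5 in the control. All HS3A8-high libraries lay above all others, and control replicate 1 was the lowest. E2f4 rose by 0.37 in HS3A8-high relative to HS3A8-low (SE 0.0684, edgeR adjusted p = 0.0371), with 0.45, 0.34 and 0.43 within replicate numbers. The call was kept with the replicate block (0.37, edgeR adjusted p = 0.0185) and by DESeq2 (0.39, adjusted p = 0.00118). It was lost without any 1 of the 6 libraries, with log2 differences of 0.35 to 0.44 and edgeR adjusted p-values of 0.0594 to 0.157. It was also lost without replicate 3 of both fractions (edgeR adjusted p = 0.0903) and with all 9 libraries in 1 fit (edgeR adjusted p = 0.395).

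The 10 E2F target genes of S-phase entry had a median of 0.13, with 8 higher and 2 lower in HS3A8-high. edgeR called 0 and DESeq2 1 of them, and 3 had an unadjusted p under 0.05, beside 3.82%, 8.87% and 19.8% of all genes tested. The 2 with the smallest p were Ccna2, the S-phase cyclin A2, at 0.37 (edgeR adjusted p = 0.0747), and Cdt1, which licenses replication origins, at 0.21 (edgeR adjusted p = 0.160). Ccna2 passed the threshold with the replicate block (adjusted p = 0.0308), by DESeq2 (adjusted p = 0.0114) and without HS3A8-low replicate 3 (edgeR adjusted p = 0.0474). Of the 7 genes of cyclin E-CDK2 and its activation, 4 were higher and 3 lower, with 0 called by edgeR or DESeq2 and 1 at an unadjusted p under 0.05. That 1 was Cdc25a, a phosphatase that activates CDK2, at 0.29 (edgeR adjusted p = 0.168), and cyclin E1 (Ccne1) followed at 0.21 (edgeR adjusted p = 0.511). Of the 7 genes of D cyclin and inhibitor turnover and p53, 6 were higher and 1 lower, with 0 called by edgeR or DESeq2 and 0 at an unadjusted p under 0.05. The 2 with the smallest p were Fbxo31 (0.28, edgeR adjusted p = 0.296) and Ambra1 (0.36, edgeR adjusted p = 0.310), both parts of ubiquitin ligases that degrade D cyclins. Trp53, which encodes the p53 that induces p21, differed by 0.14 (edgeR adjusted p = 0.477). In both control comparisons edgeR and DESeq2 called 0 genes of every one of these lists, and at an unadjusted p under 0.05 there were 0 for HS3A8-high and 1 for HS3A8-low, E2f2 at 0.62 (edgeR adjusted p = 0.826).

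The genes whose levels ran closest to Cdkn2d over the 9 libraries were Tuba1a, an alpha tubulin, with Pearson's r of 0.981, Slc7a6, an amino acid transporter, with 0.980, and Ypel5, with 0.976, among 9327 genes compared. Their mean levels in HS3A8-high, HS3A8-low and control were 10.35, 34.63 and 20.1 CPM for Tuba1a, 3.33, 12.1 and 6.82 for Slc7a6, and 15.6, 26.0 and 20.9 for Ypel5. The 9 points share their libraries and include the difference between the fractions, so r is a description.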

How the data were processed

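MEPs were profiled in 9 libraries. The table deposited by the authors holds raw, unnormalized counts, 1 row for each gene and 1 column for each library. The submitters' processing notes name STAR 2.5, HTSeq 0.6.1 and mm10. The annotation release and strand setting are not given in the sources used here. Identifiers were joined to GENCODE M21 (GRCm38), and 34490 of 35275 matched. The 10 genes, the pathway lists and the marker lists were chosen with earlier results of these data known.

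Counts were tested in R 4.3.3 with the quasi-likelihood test of edgeR 4.0.16 (TMM, filterByExpr, Benjamini-Hochberg adjustment, adjusted p under 0.05), with the 2 groups compared in each fit and no block. The study's methods name DESeq2, and the DESeq2 1.42.0 test was an alternative. Other alternatives were the replicate block, leaving out each library or replicate 3, fitting the 9 libraries together, DESeq2 size factors, a minimum mean count of 10 and no filter on counts. The block without replicate 3 was chosen after seeing the data. The test was also run on simulated counts, and the results of that check are not reported here. CPM are TMM-scaled over 9 libraries, and lengths are unions of exons. Shares were compared by exact permutation tests.

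The labels number replicates 1 to 3 in each group. Deviations from the group mean over 11791 genes correlated between the fractions where the number was the same (r of 0.346 to 0.518) and less where it was not (-0.483 to 0.114), so these numbers were taken to pair the libraries. The main test does not use this pairing, and the blocked fit that does is given as an alternative. With the control, same-number r was -0.248 to -0.065 for HS3A8-high and -0.362 to 0.0189 for HS3A8-low. These r showed no pairing by number, and with 3 libraries in a group they cannot tell whether the libraries shared a mouse or sort. All 10 genes are named. Of each pathway list the called genes are named, or the 2 with the smallest p where none was called. Trp53 and E2f2 were added after their values were seen. The genes most like Cdkn2d are the 3 with the highest r of log2 CPM (prior count 2) among genes tested with a mean of at least 5 CPM.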

Additional observations from a re-analysis of the deposited data

How the results depend on the processing

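Of 476 alternative values, 429 kept direction and side of the threshold, 17 turned direction, 17 gained a call and 13 lost one. Most values are of genes that the main test did not call, so this count says little about the calls. The 13 lost calls were all of Cdkn2d and E2f4, the genes among these that the main test called. For HS3A8-high versus HS3A8-low, the 451 genes called became 1224 by DESeq2, 1367 with the replicate block, 748 without replicate 3, 3569 with the block and without replicate 3, and 0 to 439 without 1 library. The 0 came without HS3A8-low replicate 2, with 1900 genes at an unadjusted p under 0.05. The 1 gene of the set called became 3 by DESeq2, 2 with the block, 2 without replicate 3, 5 with both, and 0 to 2 without 1 library. For HS3A8-high versus control, the 2 genes called became 140 by DESeq2, 9 with no count filter, 32 with all 9 libraries, 0 with the block, 0 without replicate 3, 69 with the block and without replicate 3, and 0 to 5 without 1 library. For HS3A8-low versus control, 0 became 93 by DESeq2 and 2 with the block and without replicate 3. The block changed no other call of the 10 genes than that of Cdkn1a. Not divided by length, the share of Cdk4 differed from the control by -2.39 (HS3A8-high) and -2.90 (HS3A8-low) percentage points, against -0.639 and -0.794. Leaving out 1 library turned the sign of the difference between the fractions in the shares of Ccnd2 (-5.22 to 3.50 percentage points), Ccnd3 (-4.27 to 4.50) and Cdk4 (-0.475 to 0.624). These log2 differences, none of them called, turned sign. Between the fractions, Ccnd2 was 0.027 without HS3A8-low replicate 1 (range without 1 library -0.49 to 0.027). Cdk6 was -0.21 without HS3A8-high replicate 1, and -0.03 and -0.18 with replicates 2 and 3 of HS3A8-low omitted in turn (range -0.21 to 0.34), -0.03 without replicate 3 and -0.014 with the block too. Cdkn2c was 0.09 without HS3A8-low replicate 3 (range -0.21 to 0.09), 0.11 without replicate 3 and 0.10 with the block too. For HS3A8-high versus control, Ccnd3 was -0.01 without HS3A8-high replicate 3 and -0.058 without control replicate 1 (range -0.058 to 0.31), Cdk4 was 0.059 without control replicate 1 (range -0.16 to 0.059), and Cdkn1a was 0.025 without control replicate 3 (range -1.17 to 0.025). For HS3A8-low versus control, Cdkn1b was -0.02 without control replicate 2, -0.03 without control replicate 3 (range -0.03 to 0.66), -0.22 without replicate 3 and -0.11 with the block too. The cause was not tested. Depth limits Cdkn1c, with at most 17 counts in a library.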
